A study of Mus musculus with 29 samples.

Results

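The galectin genes Lgals1, Lgals3 and Lgals9, together with Lgals3bp, the gene of a secreted partner of the galectins, were followed across cell types of mouse brain and blood after experimental stroke. They are named members of 1 gene group, listed with earlier results of these data known, and no threshold on their values defined them. They are 4 of 19704 genes in the young brain tables, 27514 in the aged brain tables and 16623 in the blood tables. Single-cell transcriptomes came from Drop-seq, a droplet method that tags each captured transcript with the barcode of its cell. All animals were C57BL/6J mice that underwent either stroke, by blocking the middle cerebral artery for a limited time, or sham surgery. The young animals were males aged 8 to 10 weeks, with 4 brain libraries for sham at day 2, 4 for stroke at day 2 and 4 for stroke at day 14, and with 4, 4 and 3 blood libraries for the same groups. The aged animals were 17 to 20 months old and of both sexes, with 2 brain libraries for sham at day 2, 3 for stroke at day 2 and 1 for stroke at day 14. A brain library held cells with high CD45, microglia and endothelial cells sorted from 4 to 5 hemispheres that were pooled and digested with papain in the presence of a transcription inhibitor. A blood library held leukocytes of 2 mice after red cells had been lysed or removed. Sham animals were sampled at day 2 alone, so a difference of day 14 from sham holds the longer time since surgery as well as stroke, and both stroke times share 1 set of sham libraries. A library pools several animals, and p-values measure the spread between such pools.

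Galectins are lectins that bind galactose-containing sugars on glycoproteins and glycolipids. They are made in the cytosol, leave the cell by a route that does not use the secretory pathway, cross-link receptors at the cell surface, and inside the cell bind sugars exposed by ruptured lysosomes. Lgals1 encodes galectin-1, which binds CD45 and other glycoproteins and is known for dampening T cell and microglial activation. Lgals3 encodes galectin-3, abundant in monocytes and macrophages and in reactive microglia, where it is known as a ligand of TREM2 and TLR4. Lgals9 encodes galectin-9, a tandem-repeat galectin and a ligand of TIM-3, the product of Havcr2. Lgals3bp encodes a secreted glycoprotein of the scavenger receptor family that binds galectin-3 and is known as a gene induced by interferon.

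The genes lie on 3 chromosomes of the GRCm38 build, the assembly that matches the mm10 build named in the submitters' processing notes. In the GENCODE vM21 annotation all 4 are protein coding. Lgals1 spans chr15:78926725-78930465 on the plus strand, and Lgals3 spans chr14:47367751-47386160 on the plus strand. Lgals9 at chr11:78962974-78984946 and Lgals3bp at chr11:118392751-118402092 are both on the minus strand. Because Lgals3bp is known as an interferon target, RefSeq promoter windows (GRCm38.p6, 250 bases before to 50 bases after the start) were searched on both strands for the interferon-stimulated response element (a pair of GAAA blocks with any 2 bases between them), its core AANNGAAA, and the AP-1 site TGANTCA. A window was given for 3 of the 4 genes, without Lgals1. The long element occurred in 3.44% of 32851 promoters, the core in 23.9% and the AP-1 site in 7.81%, and the core lies within every match of the long element. Lgals9 held 2 matches of the long element, both on the strand opposite to the gene, and 3 of the core. Lgals3bp held 1 match of the core, and Lgals3 held none of either. The windows follow RefSeq starts, which differ from the GENCODE ends above: that of Lgals3, chr14:47373610-47373909, lies inside its GENCODE span, so the bases around the GENCODE start were not searched. The AP-1 letters were absent from all 3 windows. The matches of the long element in Lgals9 (at -55 to -46 and 16 to 25 from the start) and the core in Lgals3bp (at -14 to -7) are shown on the strand of the gene, with the match in capitals. They stand at chr11:78984960-78984989, chr11:78984890-78984919 and chr11:118401956-118401983 in that order.
Lgals9 upstream: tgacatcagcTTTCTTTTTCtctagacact
Lgals9 downstream: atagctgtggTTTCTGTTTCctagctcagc
Lgals3bp: gttttctgaaAATCGAAActaggtgagg

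The libraries held 106977 cells, with 1143 to 6328 cells and 819438 to 5855047 counts per library and a median of 321 to 1363 counts per cell. Any pair of libraries shared at most 7 cell barcodes (0.17% of the smaller library). Cell types are those of the authors' deposited annotation. The highest of the marker lists was the named type's own for microglia, endothelial, monocyte-derived, mural, B, T and NK cells, granulocytes and border-associated macrophages. For the dendritic type the monocyte and macrophage list was the highest in brain (785 CPM) and in blood (955 CPM). Of the 12 young brain libraries, 5 had a median mitochondrial share under 1% (sham replicate 1 and replicates 1 and 2 of each stroke group), and within-group values are given by that split.

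In young sham brain the 4 genes had different sources. Levels are in CPM, the counts of a gene scaled to the summed counts of its type in a library, and a type counted with at least 20 cells. NK cells, which reached that number in sham replicate 3, are left out of the orders below. Of the types ranked, Lgals1 was highest in border-associated macrophages, the resident macrophages of meninges and vessels (776 CPM ± 174, SD, n = 4). Next came T cells (631 CPM), monocyte-derived cells (588 CPM), dendritic cells (520 CPM) and mural cells (319 CPM). Each of these neighbours overlapped in its range of libraries, and all lay above B cells (113 CPM), granulocytes (21.7 CPM), endothelial cells (17.1 CPM) and microglia (3.23 CPM). Lgals3 was high in monocyte-derived cells (1649 CPM), granulocytes (1195 CPM) and dendritic cells (989 CPM), whose ranges overlapped, and the dendritic range ended above that of border-associated macrophages (234 CPM). Microglia came last for Lgals3 as well, at 2.7 CPM. For Lgals9 the order was turned around: microglia (242 CPM) and endothelial cells (194 CPM) came first, and monocyte-derived cells (56.3 CPM) and mural cells (49.4 CPM) came last, with every pair of neighbours overlapping. Lgals3bp stood low in all types ranked, at 105 CPM in border-associated macrophages, 54.7 CPM in microglia and 27.3 CPM in endothelial cells. It was not counted in B and mural cells.

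**Figure D1:**
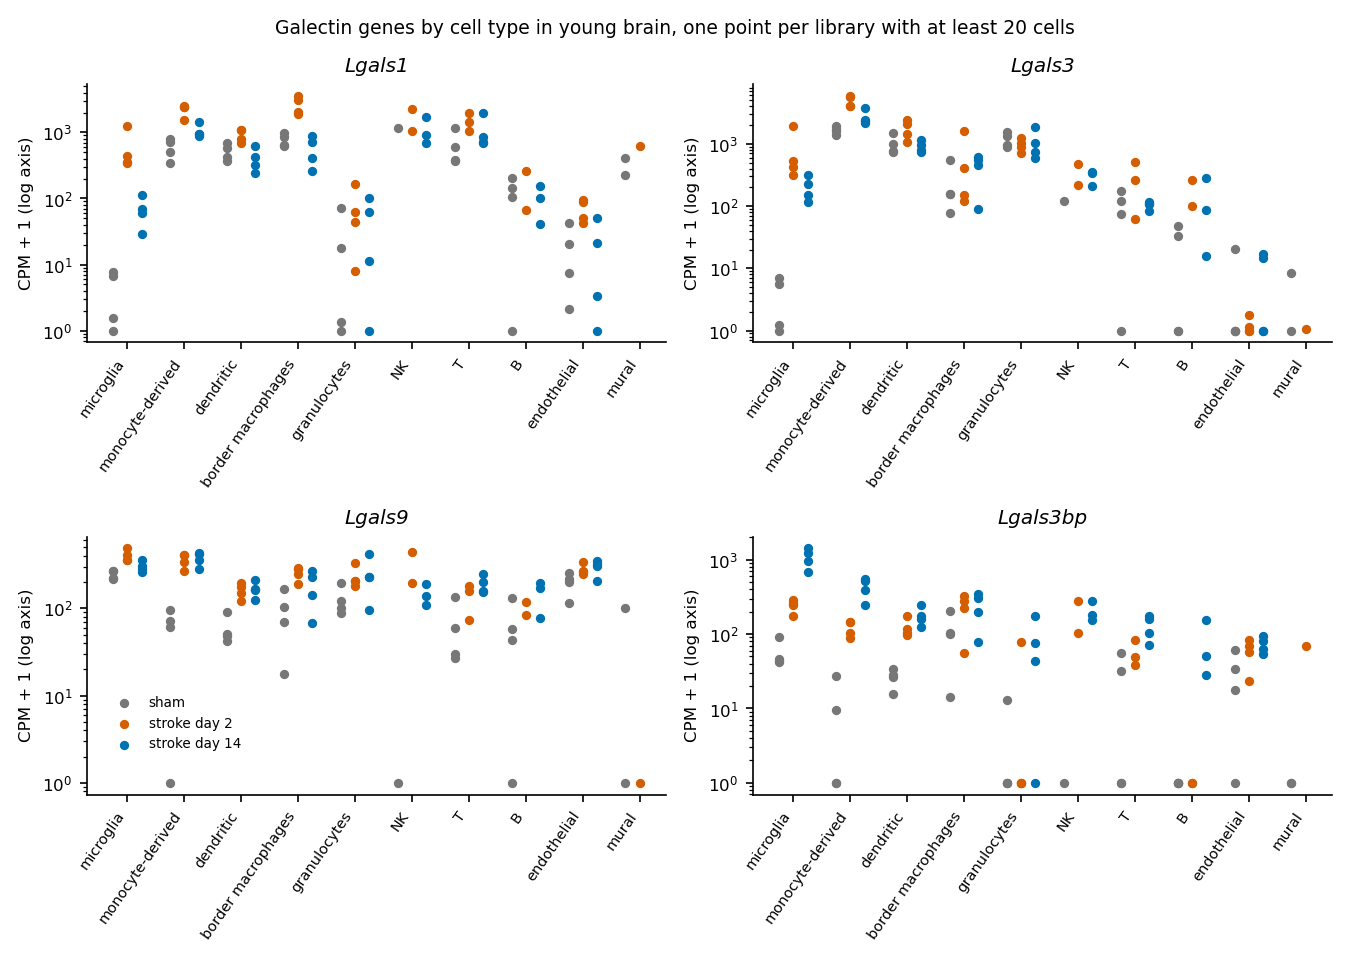
CPM of each galectin gene by cell type in young brain, on a log axis of CPM + 1, with 1 point per library and colours for sham at day 2, stroke at day 2 and stroke at day 14. In microglia the sham points of Lgals1 and Lgals3 lie at 0 to 6.62 CPM and the stroke points far above them, while those of Lgals9 stay between 217 and 483 CPM.

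In microglia, the resident macrophages of brain tissue, all 4 genes were higher at stroke day 2 than in sham. Lgals1 measured 6.62, 0.544, 0 and 5.75 CPM in the 4 sham libraries, 340, 362, 1245 and 434 CPM at day 2, and 68.4, 59.8, 111 and 28.1 CPM at day 14. Lgals3 measured 4.64, 0.245, 5.93 and 0 CPM in sham, 313, 420, 1906 and 526 CPM at day 2, and 226, 148, 313 and 114 CPM at day 14. Both genes were close to nothing in every sham library, highest at day 2, and in between at day 14, with no overlap among the 3 groups for Lgals1 and none between sham and either stroke group for Lgals3. Replicate 3 at day 2, which held 58 microglia against 618 to 1324 in the others, was the highest for both. The summed sham counts behind these levels were 19 for Lgals1 and 14 for Lgals3 over 10874 cells, so the size of the fold changes rests on few sham counts.

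Lgals9 and Lgals3bp followed other courses in the same cells. Lgals9 measured 263, 265, 217 and 223 CPM in sham, 483, 354, 412 and 353 CPM at day 2, and 301, 284, 355 and 258 CPM at day 14. Every day 2 library lay above every sham library, and the day 14 libraries overlapped with sham. Lgals3bp measured 90.6, 40.9, 42.8 and 44.5 CPM in sham, 284, 247, 176 and 257 CPM at day 2, and 1215, 958, 1415 and 685 CPM at day 14. Its 3 groups did not overlap, and day 14 was the highest.

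The differences were tested with edgeR's quasi-likelihood test, with Benjamini-Hochberg adjustment over all genes tested in a type, and the threshold for a call was 0.05 on the adjusted p. At day 2 against sham all 4 members were called higher in microglia, where 31.4% of 10145 genes tested were called. The log2 fold change was 7.33 ± 0.70 (SE) for Lgals1 (adjusted p = 2.1e-05), 8.17 ± 0.83 for Lgals3 (adjusted p = 2.8e-05), 2.37 ± 0.32 for Lgals3bp (adjusted p = 0.00024) and 0.85 ± 0.20 for Lgals9 (adjusted p = 0.0072). For each of the 4, a two-sided exact permutation test on the CPM values gave p = 0.0286, the smallest that 4 against 4 libraries can give. At day 14 against sham all 4 were again called higher, with 15.2% of genes called: Lgals3 by 6.82 ± 0.80 (adjusted p = 7.3e-05), Lgals3bp by 4.77 ± 0.35 (adjusted p = 1.9e-06), Lgals1 by 4.76 ± 0.66 (adjusted p = 0.00032) and Lgals9 by 0.77 ± 0.20 (adjusted p = 0.019). The exact permutation p of Lgals9 at day 14 was 0.0857, and its call was lost without sham replicate 3 (adjusted p = 0.060), sham replicate 4 (0.063) or day 14 replicate 3 (0.055), and with scaling to library size alone (0.31 on the log2 scale, adjusted p = 0.18), without the filter on low counts (0.062) and with counts rounded up in each cell (0.056). The other calls in these comparisons held without any 1 library.

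Between the stroke times the members parted. From day 2 to day 14 Lgals1 fell by 2.57 ± 0.53 on the log2 scale in microglia (adjusted p = 0.012) and Lgals3bp rose by 2.40 ± 0.32 (adjusted p = 0.0010), against 6.97% of genes called. With the fractional counts rounded up in each cell, Lgals1 had -1.84 and the call was lost (adjusted p = 0.057). The change of Lgals3 was -1.34 ± 0.57 (adjusted p = 0.18), with the highest day 14 library and the lowest day 2 library both near 313 CPM, and that of Lgals9 was -0.08 ± 0.20 (adjusted p = 0.89). The fold changes rest on TMM scaling, which sets the typical gene near 0. With scaling to library size alone the median of all genes moved from -0.05 to -0.22 at day 2 and from -0.04 to -0.49 at day 14, and the called genes that were higher went from 1588 of 3182 to 1273 of 3391 and from 1071 of 1546 to 670 of 3425. From day 2 to day 14 they went from 353 of 707 to 202 of 1157. No member value that was called, in the fit as designed or in an alternative, changed sign between the 2 fits. Changes of sign between uncalled values were not counted.

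**Figure D2:**
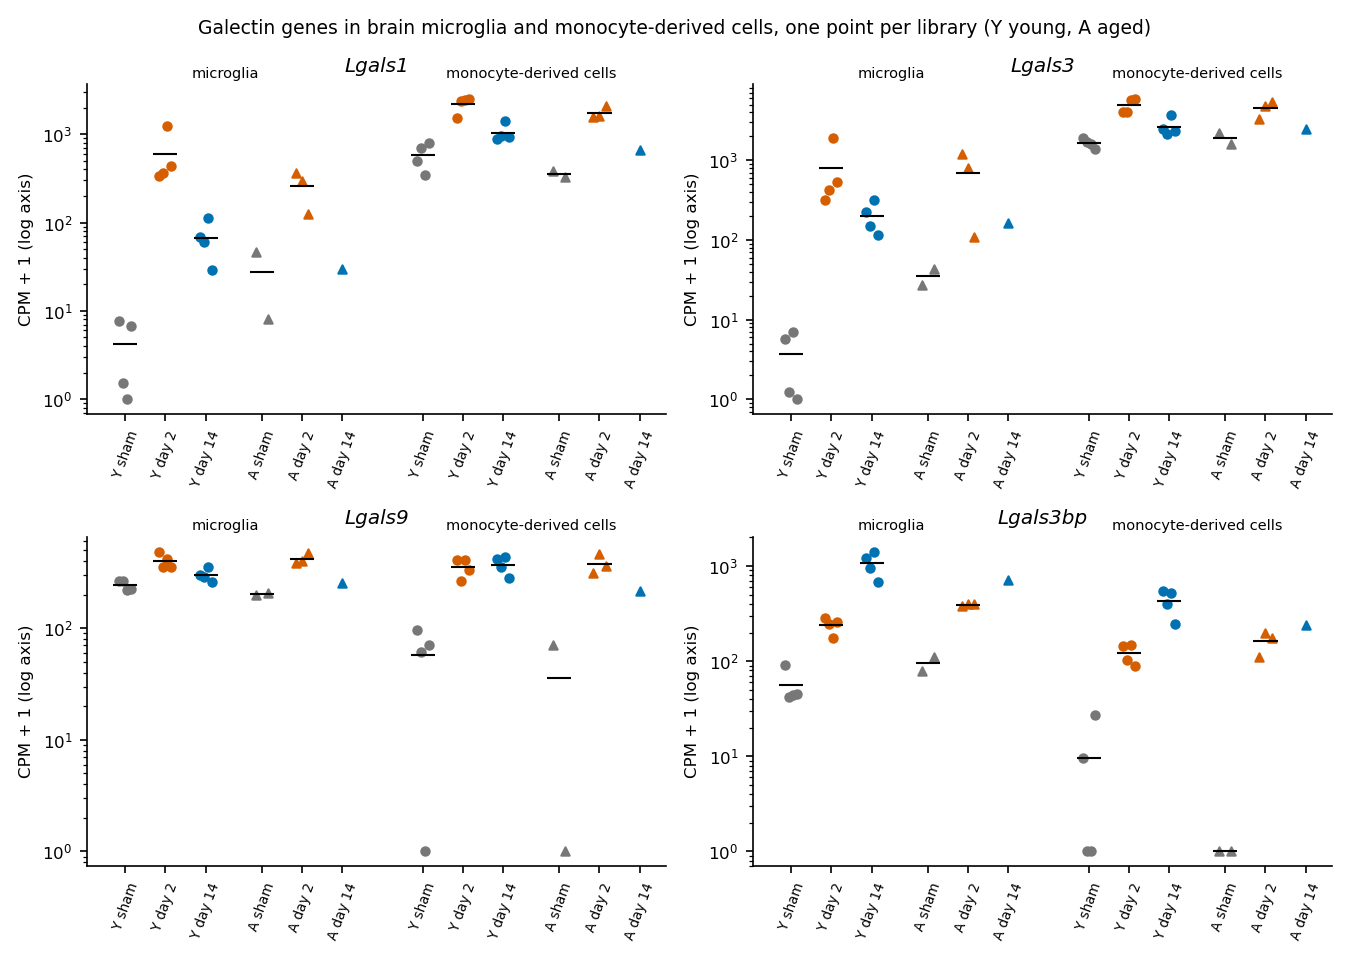
CPM + 1 of the 4 genes on a log axis in microglia and monocyte-derived cells, by group, with 1 symbol per library (circles young, triangles aged) and bars at the group means. Lgals1 and Lgals3 in young microglia peak at day 2, and Lgals3bp of young mice is highest at day 14 in both types.

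The order of the group means was the same on both sides of the mitochondrial limit. Where the share was under 1% (1 sham, 2 day 2 and 2 day 14 libraries), mean microglial levels at sham, day 2 and day 14 were 6.62, 351 and 64.1 CPM for Lgals1, 4.64, 366 and 187 CPM for Lgals3, 263, 418 and 292 CPM for Lgals9, and 90.6, 266 and 1086 CPM for Lgals3bp. Where it was 1% or more (3, 2 and 2 libraries), they were 2.10, 839 and 69.5 CPM for Lgals1, 2.06, 1216 and 213 CPM for Lgals3, 235, 382 and 306 CPM for Lgals9, and 42.7, 217 and 1050 CPM for Lgals3bp.

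The share of microglia with a count moved with the level. When every cell of at least 500 counts was thinned to 500 counts, the share of young microglia expected to show Lgals1 was 0.178% ± 0.191 in sham, 24.2% ± 21.3 at day 2 and 2.65% ± 1.14 at day 14 (SD, n = 4 libraries each). For Lgals3 it was 0.151% in sham, 19.5% ± 13.5 at day 2 and 7.03% ± 2.64 at day 14. For both genes the exact permutation p of each stroke time against sham was 0.0286. The day 2 mean rests on replicate 3, which had 10 such cells (56.1% for Lgals1 and 39.6% for Lgals3). Without it the means were 13.6% ± 1.06 and 12.8% ± 1.88 (n = 3), with an exact permutation p of 0.0571 for each. This p was the same when any other day 2 library or any day 14 library was left out, so it does not set replicate 3 apart. Without thinning, the shares with any count were 0.192%, 27.0% and 8.72% for Lgals1, and 0.12%, 25.7% and 17.5% for Lgals3, in cells of unequal depth. The cells that passed the depth limit were 5169 in sham, 1933 at day 2 and 3186 at day 14. In endothelial cells thinned alike, where both genes were low, the shares at sham, day 2 and day 14 were 1.76%, 3.22% and 1.26% for Lgals1 and 0.54%, 0% and 0.16% for Lgals3. At day 2 the microglial libraries (12.5% to 56.1% for Lgals1) lay above the endothelial ones (1.22% to 4.97%), and at day 14 the ranges of Lgals1 overlapped (1.36% to 3.99% and 0% to 4.05%).

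Monocytes enter the brain after stroke in large numbers, and markers of these cells were counted in the microglial sums. The 6 markers Ccr2, Ly6c2, Plac8, Chil3, Ms4a4c and F13a1 summed to at most 26.7 CPM in sham microglia, to 0 to 896 CPM at day 2 (median 97.0 CPM) and to 5.06 to 103 CPM at day 14, against 4298 to 12710 CPM in monocyte-derived cells. The highest value was that of day 2 replicate 3, where Ly6c2 stood at 385.5 CPM. As a share of the level in monocyte-derived cells of the same library, these markers came to 0% to 9.15% in day 2 microglia (median 1.47%). The microglial level of Lgals1 was 15.2% to 51.1% of that in monocyte-derived cells (median 19.8%), and that of Lgals3 was 7.65% to 33.6% (median 9.72%). Lgals9 came to 102% to 134% and Lgals3bp to 121% to 290%, so both were at least as high in microglia as in monocyte-derived cells of each library. At day 14 the markers came to 0.058% to 1.6%, Lgals1 to 3.01% to 7.82%, Lgals3 to 4.84% to 9.25%, Lgals9 to 72.5% to 93.1% and Lgals3bp to 224% to 280%. Without the microglia that held any count of a marker, the log2 fold changes at day 2 were 7.24 for Lgals1, 8.25 for Lgals3, 0.80 for Lgals9 and 2.29 for Lgals3bp, all still called. A cell of few counts can lack these markers by sampling, and whether cells of monocyte origin remained was not tested.

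**Figure D3:**
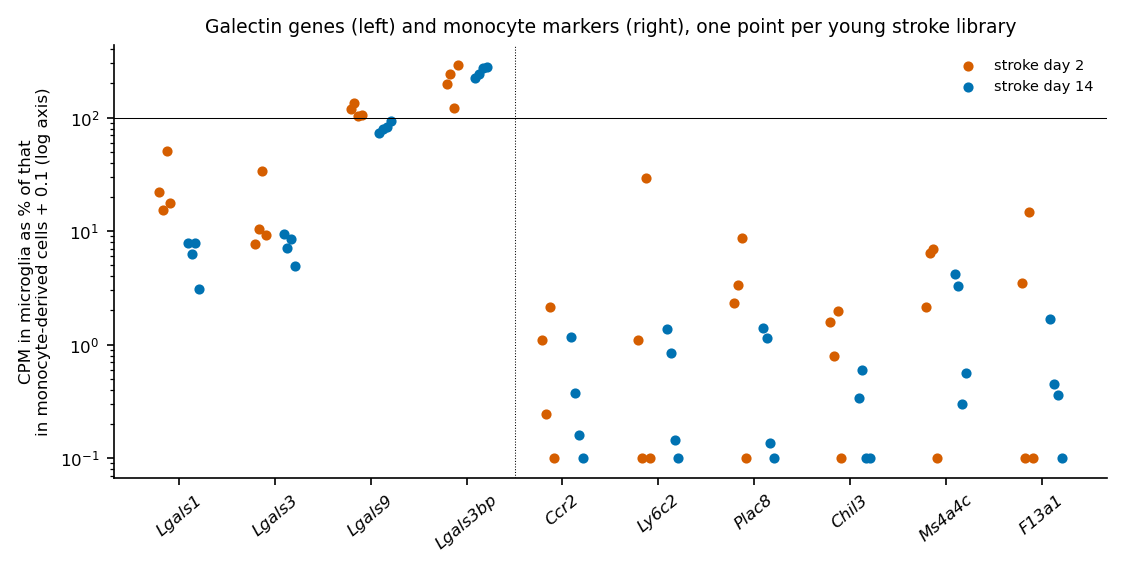
Level in microglia as a percentage of the level in monocyte-derived cells of the same young stroke library (log axis, 0.1 added), for the 4 galectin genes at left and the 6 monocyte markers at right, with 1 point per library at day 2 and at day 14. Lgals9 and Lgals3bp lie near or above 100% and the marker genes mostly below 10%.

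The finer microglial clusters of the deposited annotation differed in their galectin levels. These clusters were defined on the same cells, so their levels are given as a description with no test. At day 2, Lgals1 was highest in Mg4 (846 CPM ± 349, SD, n = 4 libraries), followed by Mg5 (303 CPM ± 73.9, n = 3), and reached 47.4 CPM in Mg1 and 35.1 CPM in Mg2, the clusters that hold most sham microglia. Lgals3 showed a steeper order, with 1235 CPM ± 543 in Mg4, 352 CPM in Mg3, 158 CPM in Mg5 and 52.6 CPM in Mg1. In Mg4 of sham animals, with 124 cells, Lgals1 measured 27.2 CPM and Lgals3 12.2 CPM, and in sham Mg5 Lgals3 ran from 0 to 322 CPM over 3 libraries. Lgals9 at day 2 lay between 356 and 391 CPM in Mg1, Mg2, Mg4 and Mg5, at 642 CPM in Mg8 (n = 2), and at 693 CPM in Mg3, where 3 libraries ran from 229 to 1271 CPM. Lgals3bp at day 14 was 1154 CPM ± 295 in Mg3, which held 3415 of the 5170 young microglia of that time, and 1180 CPM ± 340 in Mg7, against 194 CPM in Mg1. In Mg3 it already stood at 626 CPM ± 18.4 at day 2 (n = 3). Mg3 cells of the sham group had 155 CPM of Lgals3bp over 70 cells in 2 libraries.

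**Figure D4:**
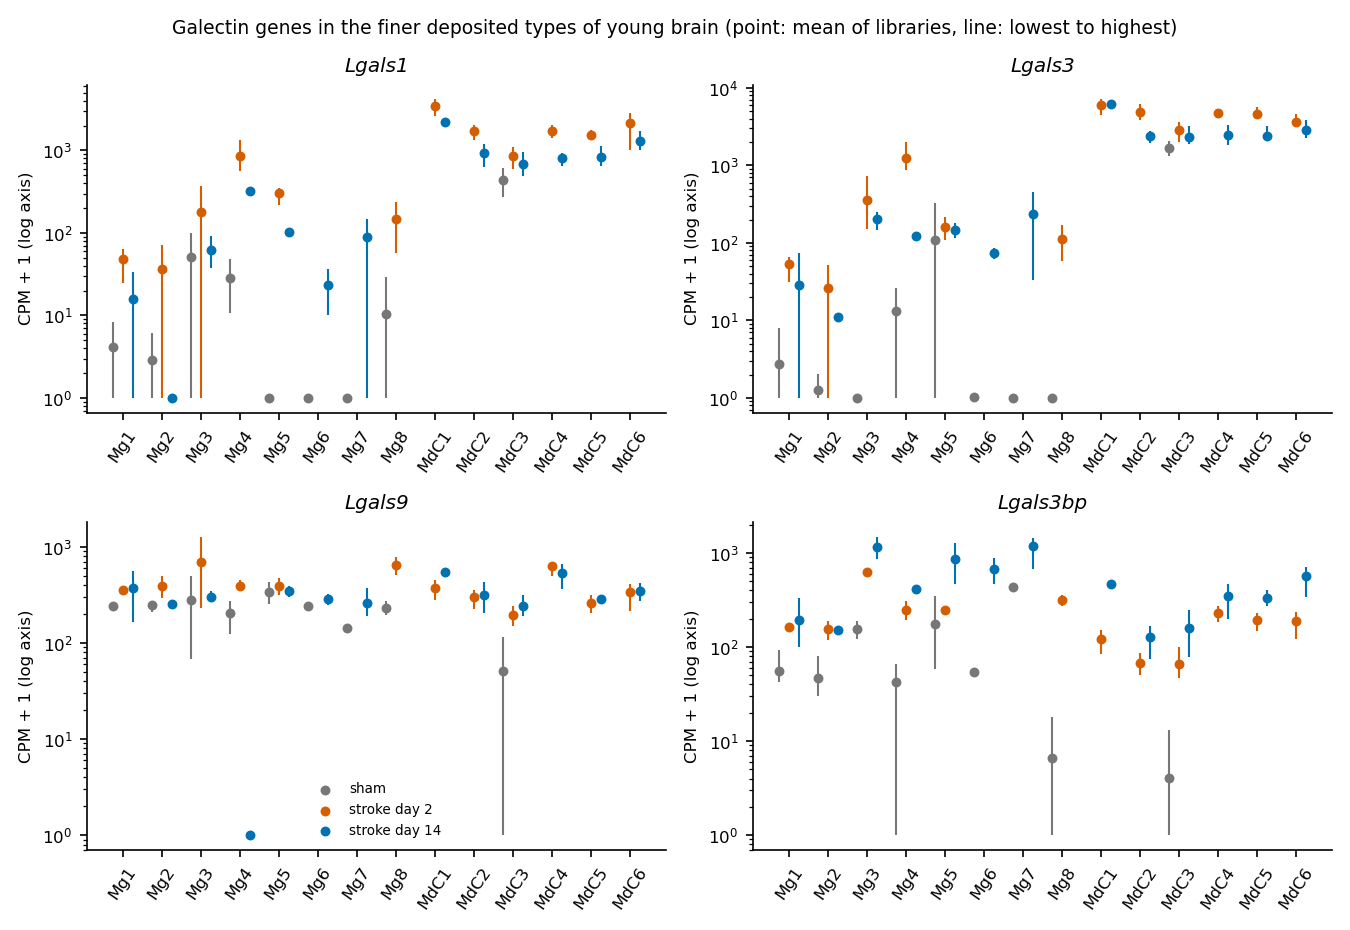
Mean CPM (points) and the lowest to highest library (lines) of the 4 genes in the finer microglial (Mg1 to Mg8) and monocyte-derived (MdC1 to MdC6) clusters of young brain, by group, for libraries with at least 20 cells of a cluster. Mg4 stands out for Lgals1 and Lgals3 at day 2 with 846 and 1235 CPM, and Mg3 and Mg7 for Lgals3bp at day 14 with 1154 and 1180 CPM.

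In monocyte-derived cells, which come from blood monocytes and are few in sham brain (43 to 99 cells per library), all 4 genes were higher at day 2 than in sham. Lgals1 measured 498, 707, 343 and 802 CPM in sham, 1530, 2386, 2436 and 2478 CPM at day 2, and 875, 959, 1418 and 935 CPM at day 14. Lgals3 measured 1930, 1711, 1588 and 1365 CPM in sham, 4091, 4052, 5673 and 5798 CPM at day 2, and 2440, 2128, 3686 and 2352 CPM at day 14. No stroke library overlapped with sham for either gene, and each day 2 library lay above all sham and day 14 libraries. Lgals9 measured 94.3, 60.7, 0 and 69.9 CPM in sham, 408, 264, 403 and 333 CPM at day 2, and 415, 355, 433 and 278 CPM at day 14. Lgals3bp measured 8.54, 0, 0 and 26.0 CPM in sham, 144, 102, 146 and 88.9 CPM at day 2, and 543, 396, 520 and 245 CPM at day 14. Lgals9 was level between the stroke times, and for Lgals3bp each day 14 library lay above each day 2 library.

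By edgeR's quasi-likelihood test with Benjamini-Hochberg adjustment, all 4 members were called higher at day 2 against sham in monocyte-derived cells, where 6.71% of 8080 genes tested were called. The log2 fold changes were 2.43 ± 0.33 (SE) for Lgals1 (adjusted p = 0.00071), 2.06 ± 0.32 for Lgals3 (adjusted p = 0.0015) and 2.87 ± 0.43 for Lgals9 (adjusted p = 0.0012). Lgals3bp (adjusted p = 0.00053) had a single sham count, and its ratio of pooled counts was 29 with a 95% counting interval of 5.20 to 1147. At day 14 against sham 3 of the 4 were called higher, with 5.15% of genes called: Lgals1 by 1.31 ± 0.33 (adjusted p = 0.029), Lgals9 by 2.91 ± 0.43 (adjusted p = 0.0012) and Lgals3bp (adjusted p = 1.5e-05, pooled ratio 110.3, counting interval 19.8 to 4359). Lgals3 differed by 1.12 ± 0.31 at day 14 (adjusted p = 0.0515). The call of Lgals1 at day 14 was lost without sham replicates 1, 3 or 4 (adjusted p = 0.10, 0.108 and 0.063), without day 14 replicates 1, 3 or 4 (0.059, 0.093 and 0.051), with at least 50 cells per library (0.063), and with scaling to library size alone (0.88 on the log2 scale, adjusted p = 0.11). Lgals3 at day 14 was called by DESeq2 (adjusted p = 0.0052) and by edgeR with mitochondrial share as a term (0.027) or counts rounded up in each cell (0.0497).

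From day 2 to day 14 Lgals3bp rose by 1.80 ± 0.28 on the log2 scale in monocyte-derived cells (adjusted p = 0.0047), with 1.79% of genes called. Lgals1 differed by -1.13 ± 0.31 (adjusted p = 0.086), Lgals3 by -0.94 ± 0.31 (adjusted p = 0.18) and Lgals9 by 0.04 ± 0.31 (adjusted p = 0.9996) in edgeR's test. DESeq2 called 3 of the 4 members in this comparison. With scaling to library size alone the all-gene median went from 0.29 to -0.13 at day 2 and from 0.28 to -0.11 at day 14 against sham, and the called genes that were higher from 457 of 542 to 180 of 355 and from 340 of 416 to 200 of 399. By mitochondrial share, mean levels at sham, day 2 and day 14 under 1% were 498, 1958 and 917 CPM for Lgals1, 1930, 4071 and 2284 CPM for Lgals3, 94.3, 336 and 385 CPM for Lgals9, and 8.54, 123 and 470 CPM for Lgals3bp. At 1% or more they were 617, 2457 and 1177 CPM, 1555, 5735 and 3019 CPM, 43.6, 368 and 355 CPM, and 8.66, 117 and 383 CPM for the same genes.

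**Figure D5:**
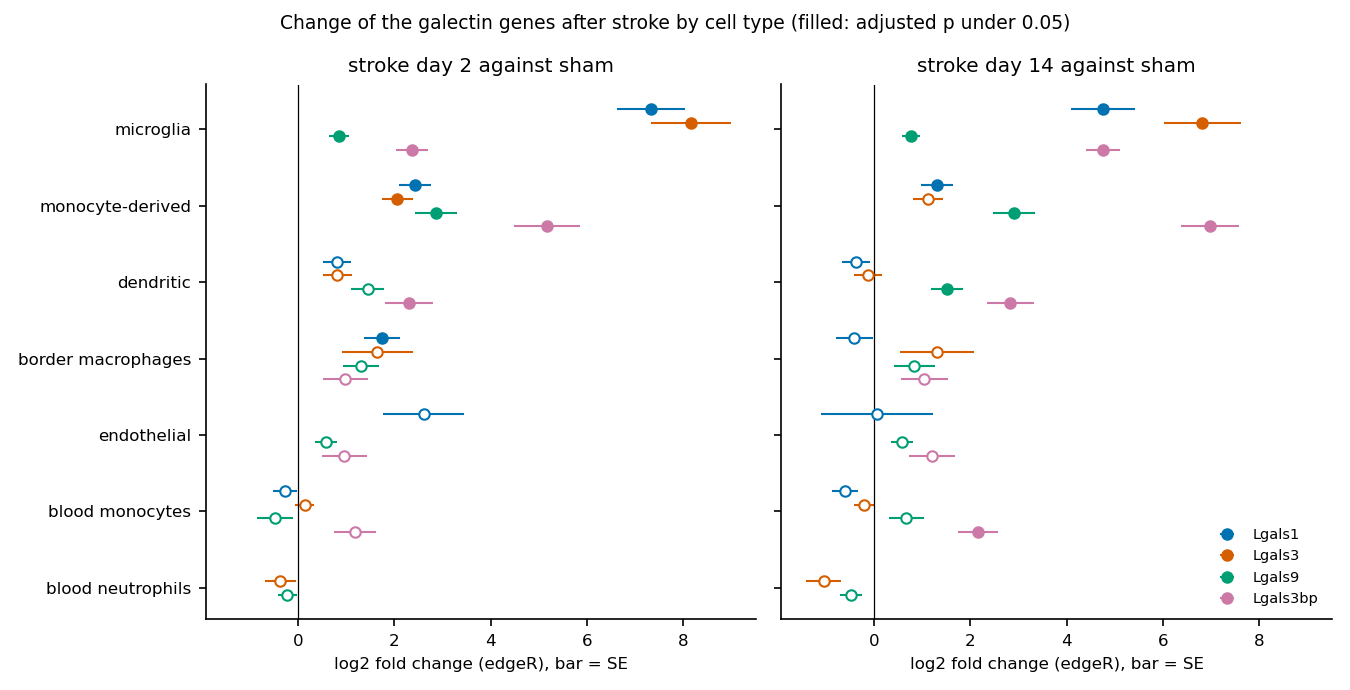
Log2 fold changes with SE of the 4 genes for young stroke at day 2 and day 14 against sham in 5 brain and 2 blood cell types, filled where the adjusted p is under 0.05. At day 2 the values furthest from 0 are those of Lgals1 (7.33) and Lgals3 (8.17) in microglia.

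Among the finer monocyte-derived clusters at day 2, MdC1 had the most Lgals1 (3478 CPM ± 702, SD, n = 4) and Lgals3 (5974 CPM ± 1259), and MdC3, the cluster that holds 243 of 318 sham cells, had the least (851 CPM and 2847 CPM). Lgals9 was highest in MdC4 (632 CPM ± 91.7) against 196 CPM in MdC3 and 258 CPM in MdC5. Lgals3bp at day 14 ran from 127 CPM in MdC2 to 572 CPM ± 177 in MdC6. Within MdC3, the cluster present in all 3 groups, Lgals3 stood at 1671 CPM in sham, 2847 CPM at day 2 and 2309 CPM at day 14, and Lgals3bp at 3.03, 65.4 and 157 CPM.

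Endothelial cells carried Lgals9 at levels near those of microglia and little of the other members. Mean Lgals9 was 194 CPM in sham, 276 CPM at day 2 and 292 CPM at day 14, mean Lgals3bp 27.3, 57.2 and 72 CPM, and mean Lgals1 17.1, 68.2 and 18.3 CPM. None of the 3 members tested was called by edgeR at day 2 against sham, where 13.3% of 5834 genes were called, although 2 had an unadjusted p under 0.05. DESeq2 called none either. The log2 fold changes were 2.60 ± 0.85 for Lgals1 (adjusted p = 0.052), 0.58 ± 0.23 for Lgals9 (adjusted p = 0.10) and 0.96 ± 0.47 for Lgals3bp (adjusted p = 0.18). EdgeR called Lgals1 without the filter on low counts (adjusted p = 0.017) and with only the groups compared (0.025). It also did so with mitochondrial share as a term (0.023) and with counts rounded up in each cell (0.012). At day 14 against sham edgeR called 0 of 3 members, with 0.0% of genes called, 2 members at an unadjusted p under 0.05 and none by DESeq2. From day 2 to day 14 Lgals1 fell by 2.54 ± 0.79 on the log2 scale (adjusted p = 0.049), with 11.2% of genes called, but this call was lost in 14 of 20 alternatives, 10 of which left out 1 library (any but sham replicate 1 and day 14 replicate 4, adjusted p = 0.073 to 0.193), and DESeq2 made none. With scaling to library size alone, the called genes that were higher went from 402 of 778 to 302 of 769 at day 2 and from 295 of 653 to 405 of 649 between the times. Lgals3 had 2 counts in sham, 0 at day 2 and 12 at day 14 and was not tested. The cluster EC5 had the most endothelial Lgals9, at 672 CPM ± 198 at day 2 (n = 3) and 661 CPM ± 91.6 at day 14 (n = 4).

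In border-associated macrophages Lgals1 rose early and fell back. It measured 985, 852, 652 and 615 CPM in sham, 2049, 1874, 3139 and 3530 CPM at day 2, and 409, 260.0, 880 and 709 CPM at day 14. Each day 2 library was above all others, and sham and day 14 overlapped. By edgeR it was the only member called at day 2 against sham (1.74 ± 0.37 on the log2 scale, adjusted p = 0.030), with 2.67% of 1313 genes called and 3 members at an unadjusted p under 0.05. From day 2 to day 14 it fell by 2.14 ± 0.39 on the log2 scale (adjusted p = 0.026), with 0.838% of genes called. The day 2 call was lost without sham replicates 2, 3 or 4 or day 2 replicate 4 (adjusted p = 0.070 to 0.150), and the second call without sham replicate 2, day 14 replicates 1 or 4 or day 2 replicate 4 (0.059 to 0.167). The day 2 call was also lost without the filter on low counts (0.284) and without the 5% of cells with most counts (0.053), and the later one with only the groups compared (0.061) and without those cells (0.095). At day 14 against sham edgeR called 0 of 4 members, with 0.0762% of genes called, 1 at an unadjusted p under 0.05 and none by DESeq2. Mean levels of the other members at sham, day 2 and day 14 were 234, 575 and 424 CPM for Lgals3, 88.1, 249.6 and 176 CPM for Lgals9, and 105, 221 and 232 CPM for Lgals3bp. The fits rest on 587, 357 and 214 cells, with 20 cells in day 14 replicate 2.

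In brain dendritic cells Lgals3bp was called higher at both stroke times. It measured 27.3, 33.4, 14.6 and 25.7 CPM in sham, 118, 104, 175 and 95.5 CPM at day 2, and 247, 157, 172 and 124 CPM at day 14. Sham lay below both stroke groups, which overlapped with each other. At day 2 against sham Lgals3bp was the only member of 4 called by edgeR (2.31 ± 0.50 on the log2 scale, adjusted p = 0.043, 1.01% of 4365 genes called), and DESeq2 called none. At day 14 Lgals3bp rose by 2.83 ± 0.49 (adjusted p = 0.012) and Lgals9 by 1.51 ± 0.34 (adjusted p = 0.039), with 1.53% of genes called, and Lgals9 measured 89.7, 49.1, 41.0 and 46.5 CPM in sham against 167, 162, 210.3 and 123 CPM. Between day 2 and day 14 edgeR called 0 of 4 members, with 0.893% of genes called, 2 members at an unadjusted p under 0.05 and 1 by DESeq2. The day 2 call of Lgals3bp was lost without any 1 of the 4 sham libraries, day 2 replicates 1, 3 or 4, or day 14 replicates 2 or 3 (adjusted p = 0.051 to 0.103), with DESeq2 (0.053) and with mitochondrial share as a term (0.0505), in all in 12 of 20 alternatives. That of Lgals9 at day 14 was lost in 10 of 20: without sham replicates 2 to 4 or day 14 replicates 1 to 3 (0.075 to 0.098), with DESeq2 (0.091), with only the groups compared (0.077) and without the 5% of cells with most counts (0.133) among them. The sham sums held 5.4 estimated counts of Lgals3bp and 12.3 of Lgals9. Mean Lgals1 was 520, 911 and 405 CPM and mean Lgals3 989, 1740 and 904 CPM at sham, day 2 and day 14, with no call in edgeR's test as designed. The 1 member called by DESeq2 between the times was Lgals1 (-1.18 on the log2 scale, adjusted p = 0.0091), which edgeR also called with mitochondrial share as a term (-1.20, adjusted p = 0.029).

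The same types are given by mitochondrial share. Lgals1 in border-associated macrophages was 985, 1961 and 334 CPM at sham, day 2 and day 14 under 1% and 706, 3334 and 794 CPM at 1% or more, and in endothelial cells 1.15, 67.3 and 1.17 CPM against 22.5, 69.1 and 35.3 CPM. Endothelial Lgals3bp was 59.6, 45.2 and 77.4 CPM against 16.5, 69.2 and 66.7 CPM. Its day 2 mean lay below sham where the share was under 1% and above it elsewhere. In dendritic cells Lgals3bp was 27.3, 111 and 202 CPM against 24.6, 135 and 148 CPM, and Lgals9 was 89.7, 158 and 165 CPM against 45.6, 162 and 167 CPM. Dendritic Lgals3 was 1463, 1236 and 767 CPM against 831, 2245 and 1041 CPM, so day 2 lay below sham where the share was under 1% and above it elsewhere. Dendritic Lgals1 was 701, 740 and 280 CPM against 459, 1082 and 529 CPM. In border-associated macrophages Lgals9 was 163, 217 and 104 CPM against 63.1, 283 and 247 CPM, so day 14 lay below sham on one side and above it on the other. Their Lgals3bp was 203, 189 and 327 CPM against 71.6, 253 and 137 CPM, and day 2 lay below sham where the share was under 1% and above it elsewhere. Their Lgals3 was 157, 275 and 273 CPM against 260, 876 and 575 CPM. For border-associated macrophages, day 14 Lgals1 lay below sham where the share was under 1% and above it where the share was higher.

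In brain T and NK cells no member tested was called, and in brain B cells no member passed the filter on low counts, so none was tested. In T cells Lgals1 alone was tested, with means of 631, 1470 and 1052 CPM at sham, day 2 and day 14. EdgeR called it neither at day 2 (1.15 on the log2 scale, adjusted p = 0.52, 0.0% of 1048 genes called, unadjusted p under 0.05 for this 1 member) nor at day 14 (0.69, 0.0954% of genes called), nor between the times (-0.46, 0.0%), and DESeq2 called none. In NK cells, compared between the stroke times alone, edgeR called 0 of 4 members, with 0.0% of 1685 genes called, none at an unadjusted p under 0.05 and none by DESeq2. Lgals1 was 1642 CPM at day 2 and 1110 CPM at day 14 there. Within brain, granulocytes were tested in the fit of age and stroke alone. EdgeR called 0 of 3 members at aged stroke day 2 against aged sham, with 3.14% of 1401 genes called, none at an unadjusted p under 0.05 and none by DESeq2. Aged against young at stroke day 2, and the interaction of age and stroke, each gave 0 of 3 members, with 0.0% of genes called. There too none had an unadjusted p under 0.05 and none was called by DESeq2. In young brain granulocytes Lgals3 was 1572, 1356, 961 and 891 CPM in sham, 1045, 881, 1253 and 713 CPM at day 2, and 600, 1863, 1034 and 727 CPM at day 14, overlapping throughout.

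The other genes of galectin biology were followed by list. Of 20 receptors and binding partners, 16 were tested in microglia. At day 2, 4 were called higher and 2 lower (median log2 fold change 0.01, against -0.05 over all genes), a share near the 31.4% of all genes called. At day 14, 8 were called higher and 1 lower (median 0.84 against -0.04), beside 15.2% of all genes. Clec7a, the beta-glucan receptor dectin-1, rose by 2.95 at day 2 to 337 CPM and by 5.81 at day 14 to 1265 CPM, from 30.4 CPM in sham. Trem2 was 1351 CPM at day 2 and 2805 CPM at day 14, a rise of 1.33 between the times, and Lamp1, a lysosomal membrane glycoprotein, rose by 1.43 at day 14 (1858 against 950 CPM). Mertk, a phagocytic receptor, fell by 2.04 at day 2 (190 against 993 CPM), as did Havcr2, whose product TIM-3 binds galectin-9, by 1.00 (194 against 427 CPM). Tlr4 fell by 1.12 at day 14. In monocyte-derived cells 3 of 15 receptors were called higher and 1 lower at day 2 (median 1.03 against 0.29, 6.71% of all genes called), and 4 higher and 1 lower at day 14 (median 0.97 against 0.28, 5.15% called). Spn, which encodes CD43, a counter-receptor of galectin-1, fell by 3.43 at day 2 (6.28 against 101 CPM) and by 3.07 at day 14, while Slc3a2, the heavy chain of CD98, rose by 2.46 and 2.13.

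Of the enzymes that build the sugars bound by galectins, 1 of 9 in microglia was called higher and 1 lower at day 2 (median -0.25 against -0.05, 31.4% of all genes called), and 1 lower at day 14 (median -0.12 against -0.04, 15.2% called). Mgat4a, a branching enzyme, fell by 1.56 at day 2 (78.9 against 305 CPM) and by 1.17 at day 14. In monocyte-derived cells 1 of 9 was called at each time, beside 6.71% and 5.15% of all genes. It was B4galt1, a galactosyltransferase, higher by 3.56 and 2.29. Genes of the response to damaged lysosomes gave 3 lower of 8 in microglia at day 2 (median -0.50 against -0.05), a share near the 31.4% of all genes called, and none at day 14 (median -0.27 against -0.04). In monocyte-derived cells 2 of 8 were called higher at day 2 and 1 at day 14 (medians 0.14 and 0.03 against 0.29 and 0.28). Of the other galectins tested, Lgals8, whose product marks damaged vesicles for autophagy, fell by 0.66 in microglia at day 2 (adjusted p = 0.043) and rose by 1.86 in monocyte-derived cells (adjusted p = 0.023).

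In microglia and monocyte-derived cells, most genes of the interferon response and of the phagocytic, lipid-handling state of microglia were called higher at both stroke times. Of 12 interferon genes, 11 were called higher in microglia at day 2 (median log2 fold change 3.93, against -0.05 over all genes, of which 31.4% were called) and 12 at day 14 (median 5.11 against -0.04, 15.2% called). From day 2 to day 14, 7 were called higher (median 1.23 against 0.10, 6.97% called). Among them Oasl2 rose by 5.93 at day 2 and 7.82 at day 14, Ifit2 by 4.26 and 6.02, and Irf7, a transcription factor of this response, by 4.16 at day 2. In monocyte-derived cells 9 of 12 were higher at day 2 (median 2.49 against 0.29, 6.71% called) and 12 at day 14 (median 3.21 against 0.28, 5.15% called), with Rsad2 up by 4.42 and 5.49. Of 12 phagocytic and lipid genes, 10 were higher in microglia at day 2 (median 3.39) and 12 at day 14 (median 6.31), against the same shares and medians of all genes. Between the stroke times, 8 of them were called higher at day 14 and none lower (median 2.15), whereas Lgals3 had -1.34 and was not called. Spp1, which encodes osteopontin, stood at 11620 CPM at day 2 against 2.95 CPM in sham, and Apoe, a lipid carrier, went from 2677 CPM at day 2 to 53330 CPM at day 14. In endothelial cells 1 and 0 of 11 interferon genes were called higher at day 2 and day 14 (13.3% and 0.0% of all genes). Dendritic cells of brain had 2 and 8 of 12 (1.01% and 1.53%), and blood monocytes 0 and 2 of 11 (0.0% and 0.254%). In blood neutrophils 0 of 8 were called higher at either time (0.0% and 5.95%). These lists were drawn up with results of the series known and are no separate evidence.

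By likeness across the 102 library and type sums of young brain, 11 types in all, Lgals3 was most like Lilr4b (Pearson r = 0.85), Tgfbi (0.82) and Il1b (0.80), of log2(CPM + 10) among 6893 genes. Lgals1 was nearest to Ms4a6b (0.74), the chemokine receptor gene Ccr2 (0.72) and Rplp0 (0.68). Lgals3bp was nearest to Itm2c (0.67), Bst2, an interferon-induced antiviral gene (0.65), and Atp6v1c1 (0.65), and Lgals9 to Sgk1 (0.59), Parp9 (0.59) and Twf2 (0.58). Among the members the highest was Lgals3bp with Lgals9 (0.51), then Lgals1 with Lgals3 (0.46). Over the 72 sums of blood, Lgals3 was nearest to Igsf6, Gpx1 and Emilin2 (all 0.93), Lgals1 to Atp5h (0.89), Pdia3 and Cox7b (both 0.85), Lgals9 to Tspyl1 (0.73), Eloc (0.62) and Preb (0.62), and Lgals3bp to Cox6c (0.66), Pea15a (0.64) and Rpn2 (0.64). By Spearman correlation the nearest genes in part changed. In young brain they were Dnajc15 (0.78), Ms4a6b (0.765) and Cd48 (0.71) for Lgals1, and Tgfbi (0.825), Mefv (0.805) and Lilr4b (0.80) for Lgals3. For Lgals9 they were Sgk1 (0.70), Lhfpl2 (0.65) and Csf1 (0.64), and for Lgals3bp Bst2 (0.71), Atp6v1c1 (0.66) and Phf11d (0.66). In blood Ddx60 (0.665) came first for Lgals9 and Chchd2 (0.71) for Lgals3bp. Sums of 1 library share its depth and RNA, and types differ in many genes at once, so no p is given.

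In aged microglia the same 4 genes stood higher after stroke. Lgals1 measured 46.0 and 7.05 CPM in the male and the female sham library and 362, 296 and 125 CPM in 3 day 2 libraries. Lgals3 measured 26.1 and 42.3 CPM in sham and 1188, 790 and 109 CPM at day 2. Lgals9 measured 198 and 206 CPM against 383, 399 and 468 CPM, and Lgals3bp 78.3 and 110 CPM against 376, 397 and 395 CPM. No sham library overlapped with a stroke library for any member. By edgeR's quasi-likelihood test with Benjamini-Hochberg adjustment 3 of the 4 were called, with 2.3% of 11096 genes called: Lgals1 by 3.72 ± 0.83 (adjusted p = 0.027), Lgals3 by 4.38 ± 0.96 (adjusted p = 0.025) and Lgals3bp by 2.10 ± 0.39 (adjusted p = 0.010), while Lgals9 differed by 1.10 ± 0.30 (adjusted p = 0.064). The calls of Lgals1 and Lgals3 were lost without the male or female sham library or without the male or first female stroke library, and that of Lgals3bp without either sham library. The log2 value of Lgals1 was 2.57 without the female and 5.18 without the male sham library. With only the aged groups in the fit no member was called (adjusted p = 0.10, 0.096 and 0.063 for Lgals1, Lgals3 and Lgals3bp). Over all genes that fit called 0, against 255 in the fit as designed.

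Aged against young microglia gave no call in the fits as designed. Aged and young libraries also differed in sex and in the genes of their tables. The median mitochondrial share was under 1% in 0 of 6 aged and 5 of 12 young brain libraries. These differences were not separated from age in the fits as designed. Between aged and young microglia at stroke day 2 edgeR called 0 of 4 members, with 0.0% of genes called, none at an unadjusted p under 0.05 and none by DESeq2. The interaction of age and stroke was called for 0 of 4 members as well, with 0.0% of genes called and none by DESeq2. It was -3.56 ± 1.06 for Lgals1 and -3.72 ± 1.20 for Lgals3 on the log2 scale (adjusted p = 0.77 each, unadjusted p = 0.0039 and 0.0070), a smaller fold in aged mice, whose sham levels of 7.05 to 46.0 CPM were above the young ones of 0 to 6.62 CPM. Without the filter on low counts both were called (adjusted p = 0.032 and 0.039). The share of all genes called in that fit is not given here, so these calls cannot be set beside it.

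In aged monocyte-derived cells all 4 members were called higher at day 2, with 2.56% of 8150 genes called. Lgals1 measured 385 and 330 CPM in the sham libraries and 1576, 1593 and 2118 CPM at day 2 (2.97 on the log2 scale, adjusted p = 0.0040), and Lgals3 measured 2169 and 1614 CPM against 3312, 4862 and 5394 CPM (1.92, adjusted p = 0.030). Lgals9 had 2 sham counts and a pooled ratio of 12.4 (95% counting interval 3.41 to 102, adjusted p = 0.013). Lgals3bp had no sham count and was at least 3.63-fold higher, against a floor of 3 counts over the group (adjusted p = 0.0071). Sham held 33 and 52 cells, and each of the 4 calls was lost without either sham library (adjusted p = 0.054 to 0.19). The call of Lgals3 was also lost without the first (0.054) or the other (0.056) female stroke library, with sex as a covariate (0.055) and with scaling to library size alone (0.075), and that of Lgals3bp with only the aged groups in the fit (0.051). Aged against young monocyte-derived cells at day 2, and the interaction, gave 0 of 4 members called by edgeR, with 0.0% of genes called, none at an unadjusted p under 0.05 and none by DESeq2. With scaling to library size alone the median of all genes in aged monocyte-derived cells moved from 0.43 to -0.22, and the called genes that were higher from 189 of 209 to 53 of 111. In aged endothelial cells edgeR called 0 of 4 members, with 0.606% of 6604 genes called, 2 at an unadjusted p under 0.05 and none by DESeq2, and Lgals1 differed by 3.51 (adjusted p = 0.16).

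In blood mean Lgals1 was highest in NK cells, and mean Lgals3 in monocytes. At sham, day 2 and day 14 mean Lgals1 was 2460, 2319 and 2409 CPM in NK cells, 485, 385 and 321 CPM in monocytes, 189, 199 and 371 CPM in T cells, and 60.0, 43.4 and 147 CPM in B cells, and in neutrophils the means were at most 2.44 CPM. NK cells lay above monocytes, T cells, B cells and neutrophils with no overlap in each group. Dendritic cells, with 2, 1 and 3 libraries of at least 20 cells, had 1388, 957 and 1123 CPM. They overlapped with NK cells in sham (861 to 1914 against 1849 to 2878 CPM). Cells labelled pre, with 1 library in each group, had 742, 941 and 1851 CPM. Mean Lgals3 was 2074, 2277 and 1833 CPM in monocytes, while neutrophil libraries ran from 748 to 1320, 572 to 1084 and 351 to 839 CPM, with no overlap between these types. Cells labelled Eos.Bas had 1034, 1691 and 1083 CPM of Lgals3 (2, 2 and 3 libraries) and dendritic cells 670, 881 and 1443 CPM, and both means were above those of neutrophils at the stroke times. Lgals9 was 156, 137 and 144 CPM in neutrophils, overlapping with the next type in each group. Lgals3bp was 85.5, 29.5 and 71.8 CPM in NK cells and close to 0 in neutrophils. Among finer types of sham blood, Lgals3 was 2502 CPM ± 483 in Mo2 and 2478 CPM ± 444 in Mo1 (SD, n = 4) but 1164 CPM ± 341 in Mo3, and Lgals1 was 600 CPM ± 108, 689 CPM ± 225 and 173 CPM ± 17.1 there. The T cell cluster Tc5 had 1524 CPM of Lgals1 in 2 libraries, against 105 CPM in Tc1.

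In blood monocytes Lgals3bp was called higher at day 14. It measured 4.31, 11.0, 14.8 and 20.3 CPM in sham, 19.3, 34.4, 23.5 and 37.4 CPM at day 2, and 69.0, 62.1 and 38.6 CPM at day 14. Each day 14 library was above all others, and sham and day 2 overlapped at their edges. EdgeR called it at day 14 against sham (2.16 ± 0.41, adjusted p = 0.036), the only member called of 4, with 0.254% of 6706 genes called, and DESeq2 called 1 too. The call was lost without sham replicates 1 or 2, day 14 replicates 1 or 2 or day 2 replicate 2 (adjusted p = 0.060 to 0.253), with only the groups compared (0.085) and without the 5% of cells with most counts (0.163). At day 2 against sham edgeR called 0 of 4 members, with 0.0% of genes called, 1 at an unadjusted p under 0.05 and none by DESeq2, and between the times 0 of 4, with 0.537%, 2 and none. At day 14 the cluster Mo4 had the most Lgals3bp (123 CPM ± 34.5, SD, n = 3) and Mo3 23.8 CPM ± 12.3. Different clusters held the monocytes of each group: Mo2, with 3.47 CPM in sham, was 858 of 2401 cells in sham and 57 of 2357 at day 14, while Mo4 went from 106 to 353 cells and Mo1 from 546 to 1066. Within Mo1 Lgals3bp ran from 0 to 20.8 CPM in sham (n = 4) and from 44.2 to 69.5 CPM at day 14 (n = 3), with no overlap, and within Mo3 the libraries overlapped (6.55 to 31.4 against 12.7 to 37.1 CPM). The part of the cluster shift in the call was not tested.

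Other blood types gave 1 call. In neutrophils Lgals3 and Lgals9 were tested, and edgeR called 0 of 2 at day 2 against sham (0.0% of 4944 genes called, none at an unadjusted p under 0.05, none by DESeq2), 0 of 2 at day 14 (5.95% of genes called, 1 and 1) and 0 of 2 between the times (4.71% of genes called, none and none). With scaling to library size alone, the called neutrophil genes that were higher went from 106 of 294 to 293 of 392 at day 14 against sham and from 69 of 233 to 182 of 261 between the times, and the median of all genes from 0.03 to 0.36. Lgals3 differed by -1.05 ± 0.35 at day 14 against sham (adjusted p = 0.093, and 0.027 by DESeq2). In B cells edgeR called 0 of 3 members at day 2 (0.0% of 8762 genes), 0 of 3 at day 14 against sham (0.0114%) and 0 of 3 between the times (0.0114%), with none, 1 and 1 at an unadjusted p under 0.05 and none, none and 1 by DESeq2. In T cells it called 0 of 3 in each of the 3 comparisons (0.0% of 5731 genes each), with none, 1 and 1 at an unadjusted p under 0.05 and none by DESeq2, and in NK cells 0 of 1 in each (0.0% of 1000 genes each), none and none. In blood dendritic cells Lgals3 rose by 1.17 ± 0.32 at day 14 against sham (adjusted p = 0.028, 1.48% of 1626 genes called), from 747 and 594 CPM to 1840, 1452 and 1038 CPM, but the call was lost in 10 of 12 alternatives (adjusted p up to 0.998), among them those without either sham library, day 14 replicates 1 or 2, or day 2 replicate 4.

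Brain monocyte-derived cells held more of every member than blood monocytes at stroke day 2. Lgals1 was 2208 against 385 CPM, Lgals3 4903 against 2277 CPM, Lgals9 352 against 52.0 CPM and Lgals3bp 120.1 against 28.6 CPM, with no overlap of libraries for any. EdgeR's log2 fold changes were 2.77, 1.41, 2.95 and 2.32, all 4 called, where 24.7% of 7540 genes were called, 1007 of 1862 of them higher, or 725 of 1974 with scaling to library size alone. Blood and brain differ in preparation, papain digestion and sorting, as well as in place, and these cannot be told apart. Granulocytes of brain against blood neutrophils gave 0 of 2 members called by edgeR, with 9.16% of 1976 genes called, 1 at an unadjusted p under 0.05 and none by DESeq2: Lgals3 differed by 0.18 and Lgals9 by 0.84 (adjusted p = 0.13).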

How the data were processed

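Single-cell libraries were aligned to mm10 and analysed with Seurat, per the submitters' processing notes. The deposited values are estimated counts per gene and cell, mostly fractional and just below whole numbers, and how the authors made them so is not given in the sources used here. The percent of mitochondrial counts per cell is the authors' deposited value. Cell types and finer clusters are those the authors deposited. The members and gene lists were chosen with earlier results of these data known.

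Counts were summed per library and type (at least 20 cells) and rounded. Levels are plain CPM. EdgeR 4.0.16 (R 4.3.3) with TMM scaling, filterByExpr and Benjamini-Hochberg adjustment over all genes gave the quasi-likelihood tests, in fits that shared 1 estimate of the spread per type. DESeq2 1.42.0, other filters and scalings, each library left out and further alternatives were tried. The edgeR test was checked on simulated data for 1 comparison, microglia at day 2 against sham (9195 genes), where it recovered 21% of 2-fold and 99% of 4-fold changes. The simulation gave all genes 1 assumed spread and changed 100 genes by each fold, all of at least 20 CPM. The recovery holds for that setting alone. Shares of cells were computed for a depth of 500 counts, and intervals cover counting error only. Scrublet marked at most 0.23% of cells, under the 0.5% of a working caller, so doublets were not removed. Named genes are the members, up to 3 called genes per list, direction and comparison with at least 20 CPM and no overlap of libraries, and the 3 genes most like each member by Pearson correlation. Genes nearest by Spearman correlation are named beside them.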

Additional observations from a re-analysis of the deposited data

Results flagged for a closer look

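Among 108 groups of 4 libraries, 9 held a library set far apart from the other 3, where chance at 1 in 20 gives 5.4. The gap to the nearest library was more than 0.829 of the range in each. In stroke day 2 microglia, replicate 3 (58 cells) had 1245 CPM of Lgals1 against 340 to 434 CPM in the others, and 1906 CPM of Lgals3 against 313 to 526 CPM. In sham microglia, replicate 1 had 90.6 CPM of Lgals3bp against 40.9 to 44.5 CPM. In monocyte-derived cells, Lgals1 was 1530 CPM in day 2 replicate 1 against 2386 to 2478 CPM, and 1418 CPM in day 14 replicate 3 against 875 to 959 CPM. In brain T cells, Lgals1 was 1939 CPM in day 14 replicate 3 against 689 to 856 CPM. In sham border-associated macrophages, Lgals3 was 548 CPM in replicate 4 against 77.1 to 157 CPM. In sham dendritic cells, Lgals9 was 89.7 CPM in replicate 1 against 41.0 to 49.1 CPM. In day 2 granulocytes, Lgals3bp was 76.8 CPM in replicate 2 and 0 in the others.

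The single aged library of stroke day 14 entered no comparison, and it lay above both aged sham libraries for 7 of the 8 member levels in microglia and monocyte-derived cells. In its microglia Lgals3 was 163 CPM (aged sham 26.1 and 42.3 CPM), Lgals9 255.0 CPM (198 and 206 CPM) and Lgals3bp 721 CPM (78.3 and 110 CPM). In its monocyte-derived cells Lgals1 was 672 CPM (330 and 385 CPM), Lgals3 2495 CPM (1614 and 2169 CPM), Lgals9 214 CPM (0 and 69.7 CPM) and Lgals3bp 240.2 CPM (0 in both). With 1 library these differences have no replicate check. The share of all genes that lay above both aged sham libraries was not computed, so the count of member levels cannot be set beside it.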

How the results depend on the processing

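Of 2944 member values over all alternatives, 2801 kept their side of the threshold, 108 fell below it, 35 passed it and 0 changed sign with a call in either fit. Changes of sign between uncalled values were not counted and lie among the 2801. Small types, few sham counts and 1 to 4 libraries a group limit what can be seen. Counts of members called that moved by over 1.5 times were these, and the cause was not tested. With DESeq2 they went from 1 to 0 (endothelial day 14 against 2, dendritic day 2, blood dendritic), 1 to 3 (monocyte-derived day 14 against 2), 2 to 1 (dendritic day 14) and 0 to 1 (dendritic day 14 against 2, blood neutrophils day 14, blood B cells day 14 against 2). Without the filter on low counts they went to 0 (border-associated macrophages day 2, blood dendritic), 1 (endothelial day 2 and aged, blood neutrophils day 14, blood monocytes and B cells day 14 against 2, granulocytes against neutrophils) and 2 (dendritic day 2, microglial interaction). With counts rounded up per cell they went to 0 (blood dendritic), 1 (microglia day 14 against 2, endothelial day 2, granulocytes against neutrophils) and 2 (monocyte-derived day 14 against 2). Without TMM, endothelial day 14 against 2 and blood dendritic went to 0. With mitochondrial share as a term, chosen after seeing the data, they went to 0 (dendritic day 2), 1 (endothelial day 2, dendritic day 14 against 2) and 2 (monocyte-derived day 14 against 2). With only the groups compared they went to 0 (endothelial and border-associated day 14 against 2, blood monocytes day 14, blood dendritic, aged microglia from 3) and 1 (endothelial day 2, dendritic day 14). Without the 5% of cells with most counts, also chosen after seeing the data, they went to 0 (border-associated day 2 and day 14 against 2, endothelial day 14 against 2, blood monocytes day 14) and 1 (dendritic day 14).

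Moves by 1 member within 1.5 times, beside those of left-out libraries, were 4 to 3 in microglia day 14 (no filter, no TMM, rounded up) and in aged monocyte-derived cells (no TMM, sex as a covariate, only the groups compared), 3 to 4 in aged microglia (DESeq2, no TMM), and in monocyte-derived day 14 3 to 4 (DESeq2, mitochondrial term, rounded up) or 3 to 2 (no TMM, at least 50 cells).

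The replicate numbers did not meet the criterion for pairing, a correlation over 0.1 in every same-number pair: same-number correlations ran from -0.287 to 0.537 in microglia and from -0.07 to 0.757 in monocyte-derived cells, with means of 0.091 and 0.172 against -0.031 and -0.058 for unlike numbers, and the same-number mean was the higher in each fit. With the replicate block the counts went to 0 (dendritic day 2, border-associated day 2 and day 14 against 2) and 1 (endothelial day 2, dendritic day 14 and day 14 against 2, blood B cells day 14 against 2). Without 1 library at a time they ran from 3 to 4 (microglia day 14), 2 to 3 (monocyte-derived day 14), 0 to 4 (aged microglia, aged monocyte-derived), 1 to 2 (dendritic day 14), 0 to 2 (border-associated day 2), and 0 to 1 (dendritic day 2, endothelial day 2 and day 14 against 2, border-associated day 14 against 2, blood monocytes day 14, blood dendritic, blood B cells day 14 against 2).

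Counts over all genes that differed by over 1.5 times ran from 1381 to 3425 (microglia day 14, 1546 as reported), 426 to 1157 (day 14 against 2, 707), 355 to 703 (monocyte-derived day 2, 542), 109 to 469 (day 14 against 2, 145), 491 to 864 (endothelial day 2, 778), 405 to 822 (day 14 against 2, 653), 36 to 124, 45 to 128 and 30 to 116 (dendritic, 44, 67 and 39), 2 to 46 and 0 to 21 (border-associated day 2 and day 14 against 2, 35 and 11), 291 to 487 and 215 to 408 (neutrophils, 294 and 233), 8 to 98 and 36 to 129 (blood monocytes, 17 and 36), 0 to 466 (aged microglia, 255), 17 to 135 (aged endothelial, 40), 96 to 326 (aged monocyte-derived, 209), 2 to 28 (blood dendritic, 24) and 155 to 696 (granulocytes against neutrophils, 181). Those of aged granulocytes at day 2 against sham ran from 29 to 67 (44 as reported). Where 0 or 1 gene was called, the alternatives gave at most 81. These counts leave out the fits without 1 library and the interactions of age and stroke. The Scrublet and technical batch alternatives were not run.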
